A study of Homo sapiens with 5 samples.

Results

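Of 3852 peaks of lysine 9 crotonylation on histone H3 (H3K9cr) called in HepG2 cells, 753 overlapped no peak, by even 1 bp, in any of 4 other peak lists made from the same cell line. These H3K9cr-only peaks made up 19.5% of the H3K9cr list (95% Wilson interval 18.3% to 20.8%). The other 3099 H3K9cr peaks, called shared below, each overlapped a peak of at least 1 other list. Members were chosen by the positions of the deposited peaks alone, with each list as it stands, on chromosomes 1 to 22, X and Y. A missing overlap is therefore how they were selected, and not a result.

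The series holds 5 CUT&Tag libraries, 1 for each target, from HepG2, a human liver cancer cell line with extra copies of several chromosomes. CUT&Tag places a transposase at an antibody-bound target inside permeabilised cells, and the released fragments are sequenced. The other 4 lists are for H3K9 acetylation (H3K9ac), H3K9 beta-hydroxybutyrylation (H3K9bhb), Flag-tagged wild type ENL and Flag-tagged ENL with the Y78A substitution. Per the design text, a HepG2 line with stable expression of Flag-tagged ENL was profiled by antibodies to Flag and to H3K9bhb. The sources used here do not give whether the H3K9cr and H3K9ac libraries came from that line, nor whether the line kept its own ENL. No untreated control or input library was analysed here. With 1 library per target, no value below has a replicate check, and the intervals cover counting error only. An interval treats each peak as independent, although neighbouring peaks share sequence and library.

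Histone crotonylation is an acylation of lysine that draws on crotonyl-CoA. It is written by acetyltransferases such as p300, and it is bound by YEATS domains, of which ENL carries one, and by double PHD finger domains. In many cells H3K9cr is known from active promoters and enhancers, where acetylation also lies. Centromeres, in contrast, are built on long arrays of satellite repeats with few genes. In the human assembly hg38 their arrays are represented by modelled sequence.

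The H3K9cr-only peaks were mostly not at genes' ends. Summits of 18 of the 753 (2.39%, 1.52% to 3.75%) lay within 1 kb of either end of a protein-coding gene, and 208 (27.6%, 24.5% to 30.9%) lay in gene-free stretches of at least 1 Mb, many of them around centromeres. Another 257 (34.1%) lay inside a protein-coding gene away from its ends. A further 68 (9.03%) lay inside another kind of gene, 137 (18.2%) between genes within 100 kb of a coding gene, and 65 (8.63%) between genes farther off.

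The sequence under a member could be read only where it reached a promoter window in the RefSeq table (GRCh38.p14), since no genome sequence was used. Each window runs 300 bases around an annotated start. The members overlapped 4 of 35116 windows, belonging to 2 of 27305 genes, CERS3 and PTCHD4. The shared peaks overlapped 883 further windows of 773 genes. CERS3 encodes a ceramide synthase for very long chain ceramides of the skin, and PTCHD4 encodes a protein with a Patched domain. The window of each gene that holds the summit is shown, 5′ to 3′ on the minus strand on which both genes lie. For CERS3 (chr15:100544237-100544536) the capitals mark a run of 20 bases that recurs 4 times, and for PTCHD4 (chr6:48068781-48069080) they mark each CG.
CERS3: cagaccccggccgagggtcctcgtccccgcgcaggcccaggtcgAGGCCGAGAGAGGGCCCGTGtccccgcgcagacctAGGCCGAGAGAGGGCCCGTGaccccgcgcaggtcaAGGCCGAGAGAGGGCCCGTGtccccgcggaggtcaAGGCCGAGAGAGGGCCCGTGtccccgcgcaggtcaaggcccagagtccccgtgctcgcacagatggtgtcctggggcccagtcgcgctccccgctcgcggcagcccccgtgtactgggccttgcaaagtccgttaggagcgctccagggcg
PTCHD4: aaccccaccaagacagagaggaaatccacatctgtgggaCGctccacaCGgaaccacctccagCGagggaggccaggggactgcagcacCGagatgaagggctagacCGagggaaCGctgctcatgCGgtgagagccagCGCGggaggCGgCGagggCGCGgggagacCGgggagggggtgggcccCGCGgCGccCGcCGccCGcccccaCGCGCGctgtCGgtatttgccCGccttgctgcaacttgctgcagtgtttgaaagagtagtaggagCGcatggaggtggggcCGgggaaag

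The CERS3 peak (chr15:100544288-100544569) had a 5.22-fold summit, with 15 fragments over a background of 2.07. Fold here is the authors' ratio of summit to estimated background, which the values show was taken after 1 was added to both. The fragment numbers were recovered from their fold and p columns. The nearest peak of another list was 56.8 kb away. The window was 73.7% G and C, with 33 CG. The recurring run, AGGCCGAGAGAGGGCCCGTG, was searched on the strand shown. It occurred in 2 of the 35116 windows, both CERS3's and overlapping each other. Any 20-base run occurring 4 or more times was found in 235 windows (0.669%), 9 of them among the 883 windows of the shared peaks. The sources used here do not give which reads the authors kept where sequence recurs.

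The PTCHD4 peak (chr6:48068708-48069037) was 3.81-fold, with 15 fragments over a background of 3.20, and 22.6 kb from the nearest other peak. Its window was 68.0% G and C, with 27 CG and no such recurring run. A second window of PTCHD4 overlaps the first and holds the same summit. These starts lie inside the gene, 42.3 kb from its nearer end, so the peak is not counted at a gene end below. Over the members' 4 windows the median G and C content was 72.2%, against 66.0% in the windows of shared peaks and 58.7% in all windows. The median number of CG was 30.5, against 26 in the windows of shared peaks and 14 in all windows. None of the 4 windows held TATAAA on either strand, which 2.94% of the shared windows and 11.5% of all windows did. No member overlapped a RefSeq miRNA hairpin.

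**Figure D1:**
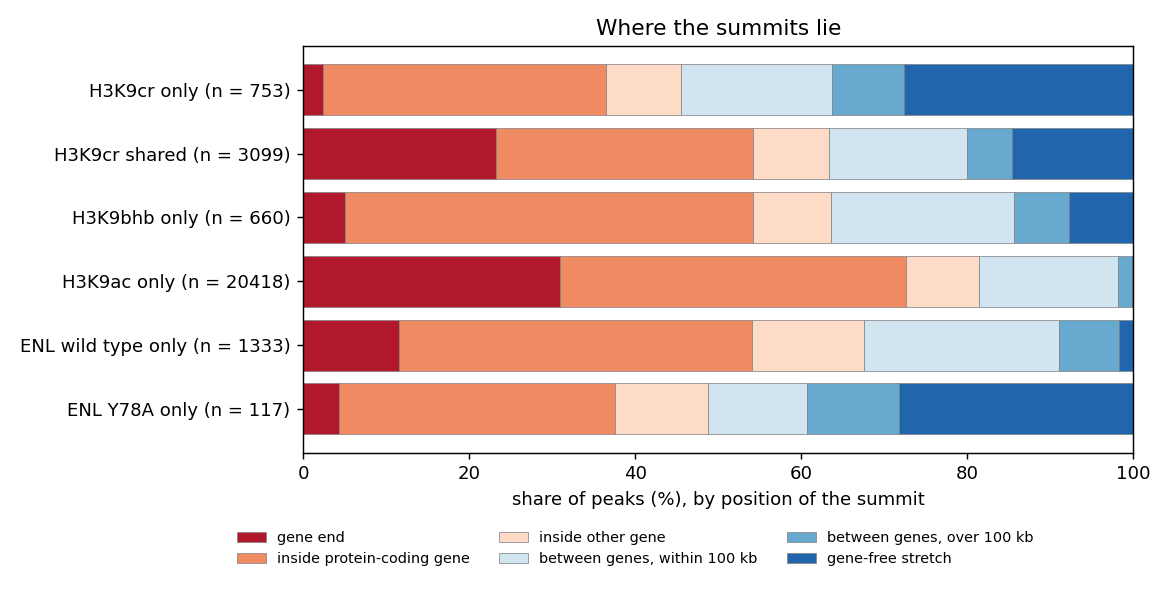
Position of the summit, as the share of peaks (%), for the H3K9cr-only peaks, the shared H3K9cr peaks and the peaks found only in each other list. Gene ends held 2.39% of the H3K9cr-only peaks against 23.2% of the shared ones, and gene-free stretches held 27.6% against 14.6%.

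Against the shared H3K9cr peaks, the members were rarely at gene ends. The share was 2.39% of the members against 23.2% of the shared peaks (719 of 3099), a difference of -20.8 percentage points (95% Newcombe interval -22.6 to -18.8). Taken from the other side, 18 of the 737 H3K9cr peaks at gene ends were H3K9cr-only (2.44%). The difference held its sign in every alternative run, between -29.1 and -18.4 points, but each run kept an overlap rule. Over whole lists, 36.6% of H3K9ac, 43.0% of H3K9bhb, 43.0% of wild type ENL and 44.3% of Y78A summits lay at gene ends. The rule removes H3K9cr peaks that overlap those lists, so it bears on this difference.

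The members also lay far from genes more often. Their summits were over 100 kb from any coding gene in 297 cases (39.4%), against 700 shared peaks (22.6%), a difference of 16.9 points (13.1 to 20.7). Gene-free stretches held 27.6% of the members against 14.6% of the shared peaks, 13.1 points more (9.74 to 16.6). Both differences were smaller when the other lists were shortened, a cut that also left out their weaker peaks. With every list limited to its 3852 peaks of highest -log10 p, 1837 H3K9cr peaks were free of other peaks. The difference far from genes was then 1.20 points (-1.57 to 3.97), and that in stretches was -0.86 points (-3.23 to 1.53). Without the H3K9ac list in the rule, these differences were 5.03 and 2.62 points.

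The peaks found only in 1 other list were set beside the H3K9cr-only peaks in the same way. Stretches held 33 of 117 Y78A-only peaks (28.2%), and the difference from the H3K9cr-only share was -0.58 points (-9.85 to 7.48). Of those 33 peaks, 14 lay in the single stretch chr2:92035128-94192530, which held 5 H3K9cr-only peaks, so the likeness rests in part on that stretch. The H3K9cr-only share in stretches exceeded that of H3K9bhb-only peaks (7.73%) by 19.9 points (16.1 to 23.7), and that of wild type ENL-only peaks (1.73%) by 25.9 points (22.7 to 29.2). It exceeded that of H3K9ac-only peaks (0.196%) by 27.4 points (24.4 to 30.7). The whole H3K9cr list was also the highest in stretches, so these gaps are not particular to the members. Over whole lists the shares were 17.1% in H3K9cr, 6.88% in Y78A, 4.87% in H3K9bhb, 3.33% in wild type ENL and 1.26% in H3K9ac. At gene ends the H3K9cr-only share was below that of H3K9ac-only peaks (31.0%) by 28.6 points and that of wild type ENL-only peaks (11.6%) by 9.16 points. It was also below that of H3K9bhb-only peaks (5%), with a difference of -2.61 points (-4.74 to -0.65), but with stretches left out that difference was -2.12 points (-4.53 to 0.29). Against Y78A-only peaks (4.27%) the interval, -7.30 to 0.90 points, held 0.

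The lists differed in threshold and background. The smallest -log10 q was 1.34 in the H3K9cr list, against 1.31 in H3K9ac, 2.02 in H3K9bhb and 2.04 in Y78A. The most frequent background value was 2.065 fragments in the H3K9cr list, 2.213 in H3K9ac, 1.209 in H3K9bhb, 1.29 in wild type ENL and 1.085 in Y78A. The H3K9ac list was also the longest, with 31493 peaks. Of the shared H3K9cr peaks 2707 (87.4%) overlapped it, and 486 overlapped no other list. H3K9ac summits lay at an end of 8 of 13 hepatocyte markers, among them APOA1, APOB and HNF4A. That is near the share over all coding genes, 54.2%. H3K9ac summits lay at none of 8 markers of blood, nerve, muscle, squamous and lung cells, while ALB, AFP, TTR, SERPINA1 and FOXA2 also had none. These counts do not settle the label HepG2.

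The gene-free stretches held the highest folds. They were defined as intervals of at least 1 Mb in which the RefSeq annotation used here places no gene of any kind. There were 32, together 209.2 Mb or 6.78% of the length of these chromosomes. A gene entered only under another chromosome would be missed, so a stretch may still hold genes. In hg38 many of the longer stretches span satellite arrays, heterochromatin or sequence gaps, although the annotation used does not mark these. How the authors handled reads that fit several places is not given. Peak positions, folds and missing overlaps in such repeats are therefore uncertain. Members numbered 0.994 per Mb inside them and 0.189 per Mb elsewhere, and 23 of the 32 held at least 1. Of the 659 H3K9cr peaks inside them 208 (31.6%, 28.1% to 35.2%) were H3K9cr-only, against 545 of 3193 outside (17.1%, 15.8% to 18.4%).

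All 5 lists had peaks in these stretches. The lists had 659 H3K9cr, 397 H3K9ac, 447 H3K9bhb, 379 wild type ENL and 373 Y78A peaks in stretches. Of those, 208 H3K9cr (31.6%), 40 H3K9ac (10.1%), 51 H3K9bhb (11.4%), 23 wild type ENL (6.07%) and 33 Y78A peaks (8.85%) were found in that list alone. The stretch chrY:714794-2752295 held 10 of those 40 H3K9ac-only peaks, among 16 H3K9ac peaks, and no member. Whether it is free of genes was not checked beyond the annotation used. Over all positions the list-only shares were 19.5% in H3K9cr, 64.8% in H3K9ac, 7.19% in H3K9bhb, 11.7% in wild type ENL and 2.16% in Y78A. The share was thus higher in stretches than over the whole list for H3K9cr, H3K9bhb and Y78A, and lower for H3K9ac and wild type ENL. The members there had a median distance of 18.2 kb to the nearest peak of any other list, and the farthest, on chromosome 18, lay 2342921 bp from one.

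A few stretches held most of them. The 6 richest had 134 of the 208 (64.4%). On chromosome 1 the stretch at chr1:121571889-143299517 held 30 members among 114 H3K9cr peaks, all with summits in its first part, between 121743485 and 124933983. The stretch chr10:38719383-42149318 held 30 among 88, the densest at 8.75 per Mb. On chromosome 5, chr5:45696381-50396191 held 28 among 94, and on chromosome 19, chr19:24179012-27681071 held 21 among 80. Those on chromosomes 11 and 20 held 15 among 51 and 10 among 26.

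The other chromosomes were uneven. The stretch on chromosome 22 at chr22:12815794-15264488 had 6 members among 7 H3K9cr peaks, and that at chr14:16057623-18343037 had 5 among 6. The stretch at chr2:92035128-94192530 had 5 members among 12 H3K9cr peaks, while 14 of its 19 Y78A peaks were Y78A-only. The stretch on chromosome X at chrX:57986332-62779132 had no peak in any of the 5 lists. The longest, 30.2 Mb on chromosome Y, had 3 members among 27 H3K9cr peaks.

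The highest fold of all was at chr19:25316699-25317020, with an 8.91-fold summit of 28 fragments over a background of 2.25. The nearest protein-coding gene, ZNF254, lay 1187 kb away, and the nearest peak of another list, an H3K9bhb peak, 6.88 kb away. Next came chr17:25139813-25140094 with 8.16-fold and 24 fragments. The peaks chr10:39936526-39936884 and chr19:25631237-25631476 tied at 7.83-fold, each with 23 fragments over the background of 2.07 that is the floor of the list. At 7.50-fold, chr21:12607270-12607563 and chr5:49272927-49273185 had 22 fragments each. The chromosome 21 peak stood 259.3 kb from the nearest other peak, whereas that on chromosome 5 stood 7.60 kb from one.

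Of the 20 members of highest fold, 19 lay in gene-free stretches, so the uncertainty of reads in repeats may bear on most of them. Folds of the 20 ran over 6.85 to 8.91 with 20 to 28 fragments. The exception was chr4:102463886-102464152, 7.63-fold with 23 fragments, inside the antisense gene NFKB1-AS1. Its distance was 37.3 kb to NFKB1, which encodes the p105 precursor of the NF-kappa-B p50 subunit, and 13.9 kb to the nearest H3K9ac peak. Among the 100 members of highest fold 87 lay in stretches, against 2 of the 100 of lowest fold.

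**Figure D2:**
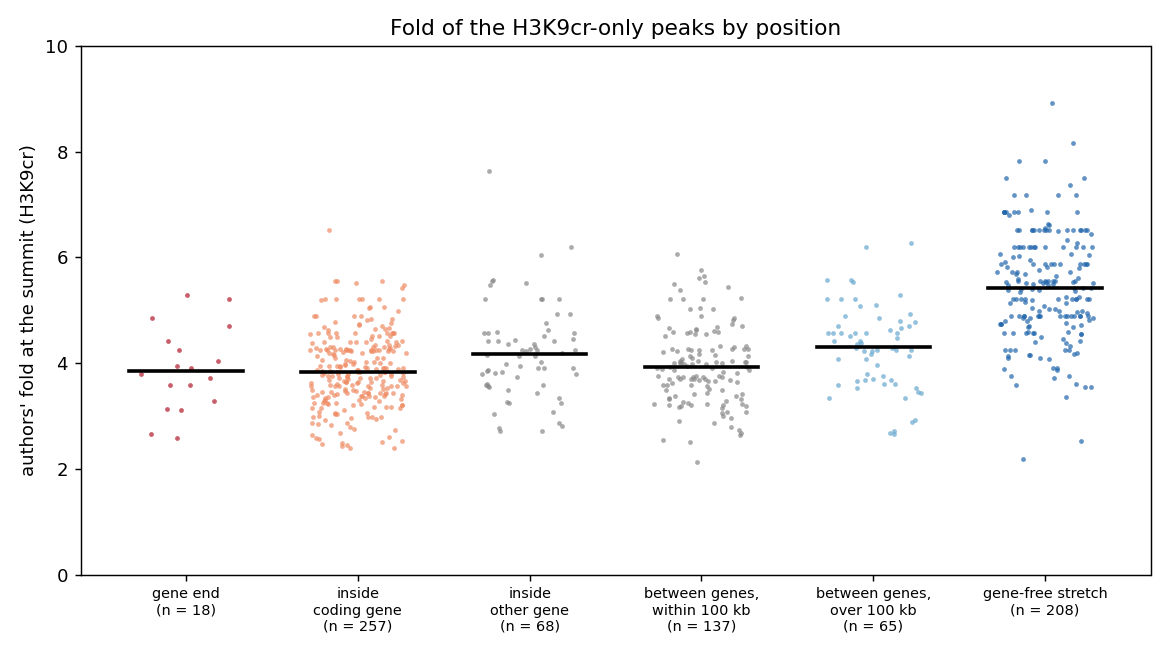
The authors' fold at the summit of each H3K9cr-only peak (points), by position of the summit, with the median of each class as a bar. The median was 5.42 in gene-free stretches and between 3.83 and 4.30 in the other classes.

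These folds sat on low backgrounds, and the background, plus 1, is the lower term of the fold. In stretches the members had a median fold of 5.42 (quartiles 4.82 and 6.20), 18 fragments and a background of 2.13. Outside, the medians were 3.93, 17 fragments and 3.29. The background equalled the list's floor, within 0.002, in 96 of 208 members in stretches (46.2%), against 61 of 545 outside (11.2%). The fragment numbers thus differed little where the folds differed. Shared peaks in the same stretches had a median fold of 6.38, 26 fragments and a background of 2.59. Their background was at the floor in 24.6% of cases, against 2.87% of shared peaks outside stretches. A lower background in stretches is thus not particular to the members.

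Of the 10 members of highest −log10 p not among those 20, 9 lay in stretches, and their values ran over 14.0 to 16.5. The nearest coding gene was EMB on chromosome 5 for 5 of them, 762.5 kb away or farther. The one outside led them, at chr4:49101418-49102025, 39.4 kb from CWH43. It had 51 fragments over a background of 12.3 and a fold of 3.92. All 4 other lists had a peak close by, Y78A at 294 bp, wild type ENL at 313 bp, H3K9ac at 320 bp and H3K9bhb at 322 bp.

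Taken as a whole, the members were narrower and had fewer fragments than the shared peaks, values that describe the list the rule was applied to and carry no test. Their summits held a median of 17 fragments (range 10 to 58), against 23 (11 to 292) in shared peaks. Their median width was 254 bp against 322 bp, and 177 members (23.5%) had the list's smallest width of 221 bp, against 209 shared peaks (6.74%). The median −log10 p was 7.94 (maximum 21.7) against 9.01 (maximum 299.7). The fold did not follow this order, at 4.24 against 4.05, and the background was 2.87 against 4.80.

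The share of H3K9cr-only peaks was lower at higher −log10 p when the H3K9cr list was ranked into 4 groups of 963. From the weakest group to the strongest it was 26.7%, 22.1%, 20.7% and 8.72%. Ranked by fold, the shares were 14.5%, 19.3%, 24.3% and 20.04%, with no such order. In the strongest group by −log10 p, 71 of 84 members (84.5%) lay in gene-free stretches, against 38.9% of the shared peaks.

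Position also differed within each of these groups, although the strongest spans 11.8 to 299.7 and members end at 21.7. The share in stretches exceeded that of shared peaks by 7.29 points in the weakest group (4.23 to 11.4), then 13.1, 30.4 and 45.6 points (35.8 to 52.6) in the strongest. At gene ends the members' share ran over 1.19% to 2.72% in the 4 groups, against 8.87% to 35.3% of shared peaks. Ranked by fold, the lowest group showed no such excess in stretches, with a difference of -1.99 points (-4.11 to 2.15).

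**Figure D3:**
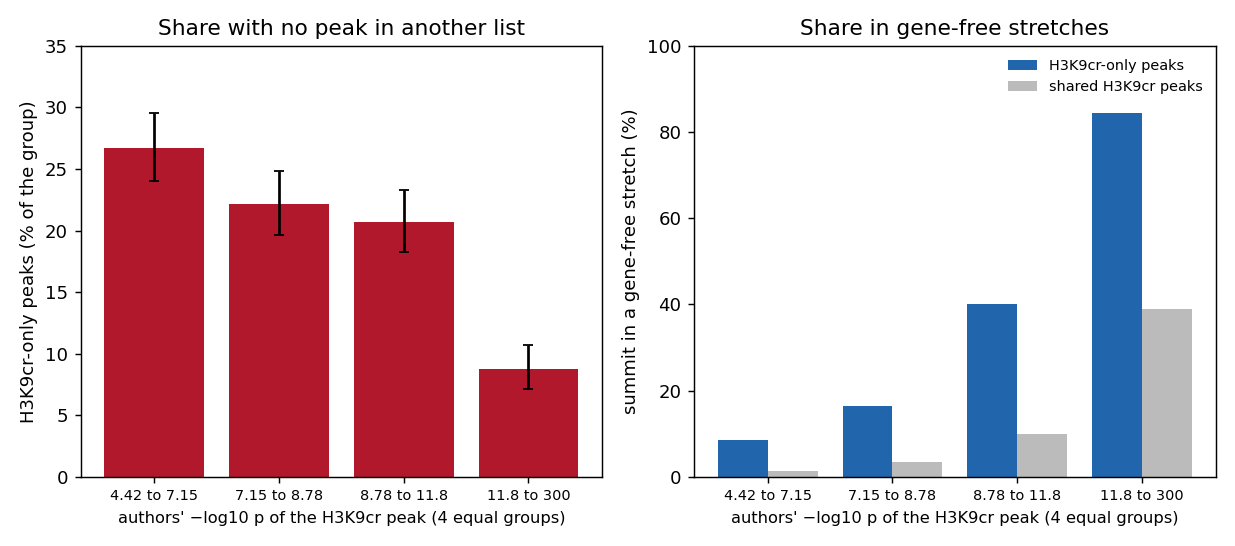
H3K9cr peaks in 4 equal groups of rising −log10 p (ranges on the x axis). Left, the share of each group that is H3K9cr-only (%), with 95% Wilson intervals, from 26.7% in the weakest group to 8.72% in the strongest; right, the share of summits in gene-free stretches (%), higher for the H3K9cr-only than for the shared peaks in all 4 groups.

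Outside the stretches, 545 members remained, and 266 of them (48.8%) lay within the bounds of a coding gene, against 48.4% of the shared peaks outside stretches. That difference was 0.39 points (-4.19 to 4.99). The gap at gene ends stayed, at 3.30% against 27.2%, or -23.8 points (-26.0 to -21.4). Summits over 100 kb from a coding gene were 16.3% of the members against 9.48%, a difference of 6.85 points (3.75 to 10.4).

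The 266 members fell in 251 coding genes, which were long. Their median length was 114.2 kb, against 71.7 kb for the 1137 coding genes with a shared summit and 24.1 kb for all 20037. Genes over 100 kb made up 55.4% of the 251, against 39.1% of those with a shared summit and 16.7% of all. A long gene has more room for a summit, and no correction for length was made. In 73 lncRNA genes lay 70 members, some of them counted among the 266 as well, since some lncRNA genes overlap coding genes.

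CDH4, the gene of R-cadherin on chromosome 20, held 5 members, the most of any gene, over 688 kb, with folds of 3.56 to 3.99. DIP2C on chromosome 10 held 3, with folds of 4.24 to 4.76. A further 14 coding genes held 2 each. They included ADARB2, a brain-expressed relative of the RNA-editing adenosine deaminases, with folds of 5.20 and 4.09, the cell adhesion gene SDK1 with 4.52 and 3.77, and the guanine nucleotide exchange factor DOCK10 with 4.40 and 4.19. The highest fold inside a coding gene was 6.52, in ADAMTS3, which encodes a procollagen-processing protease. It was followed by 5.55 in DNAH14, which encodes a dynein heavy chain, in FSTL4, and in UPP2, which encodes a uridine phosphorylase. The axonal adhesion gene NRCAM, the translocon gene SEC63 and AUTS2 each had 1 member of 5.22-fold.

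Of the 20037 coding genes 20 (0.0998%) had an H3K9cr-only summit within 1 kb of an end, and 872 (4.35%) had any H3K9cr summit there. The 20 genes shared 18 peaks. Where the tables give a strand, the summit lay at the annotated start of 4 genes and at the 3′ end of 9, with no strand for 7. Of the 20 genes 8 also had an H3K9ac summit at an end, against 54.2% of all coding genes, and 12 had none from any other list, against 44.6% of all. The rule, which removes overlapping peaks, bears on both counts.

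At the start of the whole gene, the genes were CERS3, TSPY4 with 4.71-fold, PCGF3 with 3.12-fold, and TSSK3 with 2.66-fold. TSPY4 belongs to a testis-specific family of near-identical copies on chromosome Y, so its reads are uncertain. PCGF3 encodes a Polycomb group RING finger protein, and its peak lay 124 bp from a peak of another list. The TSSK3 peak had its summit outside TSSK3, 958 bp from its start, and inside FAM229A, 311 bp from an end of that gene.

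At 3′ ends, the highest was ZDHHC11, a palmitoyltransferase gene, with 5.29-fold and 23 fragments, 10.5 kb from the nearest other peak. It has a close copy nearby, ZDHHC11B, so its reads are uncertain too. BUB1, the mitotic checkpoint kinase gene, had 4.42-fold with 13 fragments 40.8 kb from one. PWP2, a ribosome biogenesis gene, had 4.04-fold, TMEM255B 3.79-fold, DDT, the gene of D-dopachrome tautomerase, 3.59-fold and LAPTM5, a lysosomal membrane protein gene of blood cells, 3.58-fold. CYB5A, the cytochrome b5 gene, had 3.14-fold 489 bp from another peak. The lowest peak, 2.59-fold with 38 fragments, lay between the 3′ ends of GPX4, the lipid hydroperoxide peroxidase gene, and SBNO2.

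Named gene lists held few members. The background for an H3K9cr-only summit inside a gene or at its ends was 1.31% of coding genes (263 of 20037), with length not allowed for. None of 30 writers, erasers, readers and crotonyl-CoA enzymes of crotonylation had one, and none of 36 genes of other tissues did. Among 30 genes of liver secreted proteins 1 did, the complement gene C3 (2.67-fold, 25 fragments). Counts of this size cannot be set apart from the background.

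Among 30 liver transcription factors 2 held a member. FOXA1, a pioneer factor, had a summit of 2.50-fold with 26 fragments, 2.06 kb from its end and 2.65 kb from a peak of another list. PPARA, the lipid-sensing receptor that drives fatty acid oxidation, had 2 summits of 4.50-fold and 3.56-fold. Of 29 long neuronal genes 1 did, DSCAM, a neuronal adhesion gene of 836 kb, whose 4.40-fold summit lay 692.4 kb from the nearest peak of any other list. Among 518 zinc finger genes 8 (1.54%) did, near the background, led by ZNF407 (4.39-fold), ZNF236 (4.05-fold), ZNF331 (3.77-fold) and ZNF750 (3.72-fold). The other families searched had none, namely 392 olfactory receptor, 66 protocadherin, 94 keratin-associated, 45 defensin, 22 UDP-glucuronosyltransferase, 56 cytochrome P450 and 74 clustered histone genes. Shared H3K9cr summits were also missing from these families, apart from cytochrome P450 genes, of which 1 had one at an end and 3 had one inside. The absence is thus not particular to the members.

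By chromosome, the members outside stretches were densest on chromosome 20, with 6.13 per 10 Mb (38 peaks), then on 22 with 5.25 (20 peaks) and 21 with 3.77 (15 peaks). They were sparsest on X, with 0.198 per 10 Mb (3 peaks), on 3 with 0.562 (11 peaks) and on 5 with 0.849 (15 peaks). The shared H3K9cr peaks were densest on chromosomes 19 (22.7 per 10 Mb), 21 (19.3) and 22 (18.4), and had 17.3 on 20, 4.85 on 3 and 1.79 on X. On chromosome 19 the members had 3.27 per 10 Mb. The H3K9cr-only share of the peaks outside stretches was 26.2% on chromosome 20, 10.4% on 3 and 10% on X. HepG2 is aneuploid, and copy number was not measured here, so its part in these densities was not tested.

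**Figure D4:**
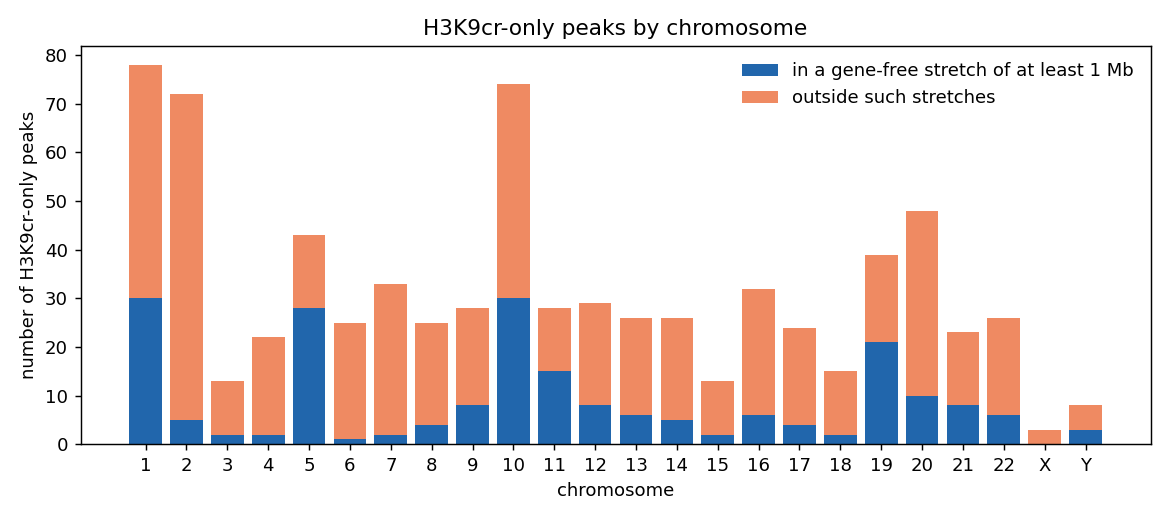
Number of H3K9cr-only peaks on each chromosome, split by whether the summit lies in a gene-free stretch of at least 1 Mb. Chromosomes 1, 10 and 2 had the most, with 78, 74 and 72, and on chromosome 5 most (28 of 43) lay in stretches.

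Within 5 Mb of a chromosome end lay 142 members (18.9%) and 660 shared peaks (21.3%), a difference of -2.44 points (-5.46 to 0.83). Outside stretches the shares were 25.7% of the members and 24.0% of the shared peaks. They were 12.2% of H3K9bhb-only, 16.2% of H3K9ac-only, 15.0% of wild type ENL-only and 16.7% of Y78A-only peaks outside stretches. The members' share was above that of H3K9bhb-only peaks by 13.5 points (9.04 to 18.0), of H3K9ac-only peaks by 9.51 points (5.98 to 13.4) and of wild type ENL-only peaks by 10.6 points (6.61 to 14.9). Against Y78A-only peaks the difference was 9.02 points, with an interval of -0.99 to 16.5 that holds 0. With stretches kept in, the difference from H3K9ac-only peaks was 2.64 points (-0.04 to 5.63).

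Joined at 10 kb or less, 62 of the 753 (8.23%) formed 30 clusters, 28 of them of 2 peaks and 14 in gene-free stretches. The largest, of 3 peaks each, were chr10:40633561-40643726, with folds of 4.86 to 6.52, and chr21:10355221-10367807, with folds of 3.44 to 3.60, 153.9 kb from TPTE. Shared peaks had another shared peak within 10 kb in 18.7% of cases, but there were over 4 times as many of them. The share was 1.21% among the 660 H3K9bhb-only peaks, below the members' by 7.02 points (4.91 to 9.28), and 8.03% among the 1333 wild type ENL-only peaks. Among the 20418 H3K9ac-only peaks it was 45.8%, and the members' share minus that was -37.6 points (-39.5 to -35.3). Among the 117 Y78A-only peaks it was 4.27%, and the interval of the difference, -1.66 to 7.23 points, held 0. These sets differ in size, which was not allowed for.

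The nearest peak of any other list lay a median of 16.6 kb away (quartiles 5.54 and 42.7 kb). It was within 1 kb for 77 members (10.2%) and within 10 kb for 279 (37.1%). It was an H3K9ac peak for 459 members (61.0%), H3K9bhb for 144 (19.1%), wild type ENL for 110 (14.6%) and Y78A for 40 (5.31%). Those lists held 31493, 9176, 11394 and 5422 peaks in the same order. A longer list has more peaks to lie near, and list length was not allowed for in these counts or in the distances below. In gene-free stretches the median distance was 25.3 kb to H3K9bhb, 32.7 kb to Y78A, 34.7 kb to wild type ENL and 35.7 kb to H3K9ac. Outside them it was 18.8 kb to H3K9ac, 54.8 kb to wild type ENL, 60.6 kb to H3K9bhb and 133.2 kb to Y78A.

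**Figure D5:**
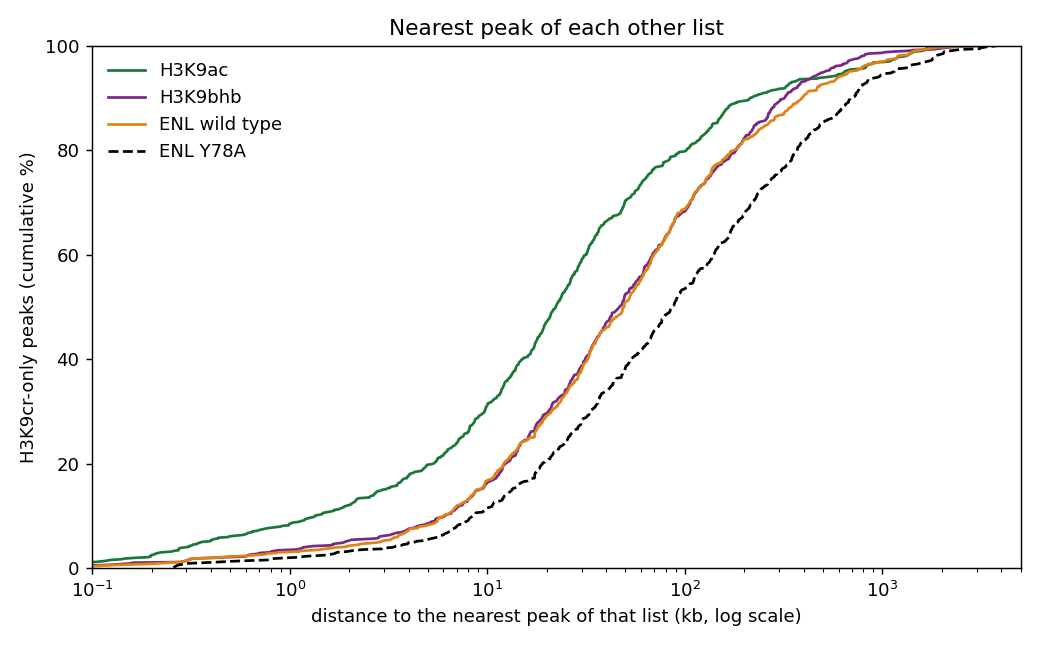
Cumulative share of the 753 H3K9cr-only peaks (%) by distance to the nearest peak of each other list (kb, log scale). H3K9ac peaks lay nearest, with a median of 22.2 kb, and Y78A peaks farthest, with 86.7 kb. H3K9bhb (46.7 kb) and wild type ENL (49.2 kb) nearly coincide. H3K9ac is the longest of these lists and Y78A the shortest, and length was not allowed for.

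At its edge the rule turned on a few bases. The members just inside it were chr14:97181198-97181438 (4.66-fold), 1 bp from an H3K9ac peak, a peak in IL17RA (3.52-fold) 15 bp from one, and peaks near PIK3CA (19 bp, from H3K9bhb), BMP7 (26 bp) and UBE2QL1 (28 bp). Just outside it were peaks near CNTNAP3 (3.92-fold), with 4 bp shared with a Y78A peak, in ZNF331 (3.47-fold) and near POTEE with 7 bp each, and in CROCC and near NBAS with 11 bp each.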

How the data were processed

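CUT&Tag peak lists of 5 HepG2 libraries, 1 per target, were used, with groups taken from the titles. Per the submitters' processing notes, Bowtie2, FastQC, deepTools and MACS2 were used with hg38, and no versions are listed. The sources used here do not give the control, the read totals or the filters on duplicates and mapping. The deposited columns are interval positions, a score, a fold (ratio of summit to background, with 1 added to both, as the values show), and p-values and q-values as −log10; the fold, −log10 and score values are the authors' own. The deposited summit offsets give 1 base per peak.

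Fragments and background at each summit were recovered from the authors' fold and −log10 p as a whole number and a Poisson mean, within 3e-05, for all 3852 H3K9cr peaks on the 24 standard chromosomes. Genes came from a RefSeq table (GRCh38.p14), the same assembly as hg38, and were taken by chromosome name alone. Whether each gene's position refers to the main chromosome sequence was not checked, so gene distances may be wrong for some peaks. An overlap was 1 bp or more. Intervals are 95% Wilson for a share and Newcombe for a difference. There is no p-value. Python 3.11.15, pandas 2.3.3, numpy 2.4.6 and scipy 1.17.1 were used; on simulated data all planted overlaps were found, and bedtools 2.31.1 gave the same calls (0 differences over 3852 peaks).

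The members and gene lists were chosen with earlier results of these data known. Named were the 20 members of highest fold, the next 10 by −log10 p, gene-end genes, up to 4 genes per list, the largest clusters and the 5 peaks on each side of the rule; other gene-body genes, the stretches, the strength groups and the chromosome-end distance were chosen after the values were seen. Alternatives changed the overlap, thresholds, lists, gene windows and distances.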

Additional observations from a re-analysis of the deposited data

Results flagged for a closer look

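Signal outside the peaks described above was seen on sequences other than chromosomes 1 to 22, X and Y (unplaced and alternate sequences). There, 39 of the 296 H3K9cr peaks (13.2%) overlapped no peak of another list. With no control library, they are given as a count of peaks only.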

How the results depend on the processing

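No paired analysis was possible because each target had 1 library, and no replicate could be left out. The number of H3K9cr-only peaks ran over 567 to 889 in 9 of 11 alternatives. It was 1239 without the H3K9ac list, and 1837 with every list limited to the length of the shortest. With lists of that length the difference between H3K9cr-only and shared peaks far from genes was 1.20 points, and that in gene-free stretches turned to -0.86 points, an interval that holds 0. The gene-end difference kept its sign in all 15 alternatives, each of which kept an overlap rule. The median fold of H3K9cr-only peaks was 4.57 with a −log10 q of at least 3, 4.02 with equal lengths and 4.05 without H3K9ac, and their median −log10 p was 8.75 at that threshold. Their median width was 263 bp where a shared peak had to cover at least 50% of the H3K9cr peak, 262.5 bp where it had to hold the summit, 282 bp with equal lengths and 270 bp without H3K9ac. Within 2 Mb of chromosome ends the difference was -3.81 points, whose interval excludes 0. Base composition around summits was not run. Summits of 10 to 58 fragments limit all values, and a missing overlap does not show that another mark is absent.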
